A study of Mus musculus with 6 samples.

Results

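Cirbp, Rbm3, Hsf1 and Hsf2 are 4 of the 52513 genes in a table of RNA levels from mouse lumbar spinal cord. They were taken by symbol, all 4 were found once, and all 4 passed the level set for testing, as did 14614 genes in all. The tissue was cord at L4-L5 from mice of genotype WT, given morphine (10 µg in 10 µL) or saline into the spinal fluid space (intrathecally) for 7 days. There were 3 morphine and 3 saline libraries, each from total RNA. Their descriptions carry runs of numbers that are alike in both groups. The sources used here do not say whether a library pooled several mice, nor give the strain, sex or age, so the spread between libraries may not be that between single animals. The values are FPKM, a fragment count divided by transcript length and by library depth. The 4 genes were selected on the morphine and saline values of this table, which were already known. Their levels and differences are therefore described here with no test.

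Cold-inducible RNA-binding protein, the product of Cirbp, and RBM3 are small relatives with 1 RNA recognition motif and a glycine-rich tail. In mammalian cells their RNA and protein accumulate on mild cooling and decline on warming, and in mouse brain RBM3 is known for preserving synapses after cooling. HSF1 and HSF2 are transcription factors that bind heat shock elements in the promoters of chaperone genes. HSF1 is held inactive by chaperones until unfolded protein draws them away, and is activated after translation, so its RNA level is not a measure of its activity. Hspa1b encodes the inducible cytosolic Hsp70 and is a classical readout of HSF1. The question put to these data was whether, library by library, Cirbp and Rbm3 stand opposite to Hspa1b, as a reading of tissue temperature would have them. Mice were housed at 22 ± 2 °C with a cycle of 12 h light and 12 h dark. The sources used here give neither body or tissue temperature nor the hour of collection.

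Cirbp (ENSMUSG00000045193) lies on chromosome 10 from 80165985 to 80172786 on the plus strand of mm10, where GENCODE M21 gives it 7 transcripts, 2 of them protein coding. Rbm3 (ENSMUSG00000031167) is a minus-strand gene of chromosome X, at 8138975 to 8145880, with 11 transcripts, 6 of them coding. Hsf1 (ENSMUSG00000022556) lies on chromosome 15 from 76477422 to 76501913 and Hsf2 (ENSMUSG00000019878) on chromosome 10 from 57486385 to 57513135, both on the plus strand, with 16 and 6 transcripts. Over their longest open reading frames, of 465 and 519 bases, Rbm3 and Cirbp shared 330 of 453 aligned bases (72.8%). Hsf1 and Hsf2 shared 853 of 1387 aligned bases (61.5%).

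The promoters of Cirbp and of Hspa1b are shown because the results below set these genes against each other. RefSeq promoter windows (GRCm38.p6, the build also called mm10) matched 2 of the 4 genes, Cirbp and Hsf2. Each sequence is the 250 bases before a transcription start, 5′ to 3′ on the strand of the gene. Cirbp is at chr10:80167589-80167838 on the plus strand, and Hspa1b is at chr17:34959239-34959488 on the minus strand. Capitals mark the letters TCCCCGCC or their reverse complement, and GAANNTTC, in which N is any base.
Cirbp: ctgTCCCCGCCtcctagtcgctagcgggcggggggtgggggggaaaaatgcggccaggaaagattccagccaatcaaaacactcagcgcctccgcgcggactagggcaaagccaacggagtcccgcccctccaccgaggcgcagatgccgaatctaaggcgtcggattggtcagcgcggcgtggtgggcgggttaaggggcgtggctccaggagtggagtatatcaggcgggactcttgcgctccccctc
Hspa1b: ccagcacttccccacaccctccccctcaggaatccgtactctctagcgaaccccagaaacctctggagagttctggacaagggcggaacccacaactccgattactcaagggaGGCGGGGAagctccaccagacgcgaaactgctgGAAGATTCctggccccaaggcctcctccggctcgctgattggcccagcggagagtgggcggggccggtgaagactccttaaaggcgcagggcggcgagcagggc

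The letters TCCCCGCC are those of the mild cold response element described upstream of mouse Cirbp. They stood once in the Cirbp window, 247 to 240 bases before the start. The same letters on the other strand stood in the Hspa1b window, 137 to 130 bases before the start, and 5.38% of 32851 promoter windows of 300 bases held them on either strand. GAANNTTC, which is 1 arrangement of paired heat shock units and reads alike on both strands, stood once in the Hspa1b window, 104 to 97 bases before the start, and in 7.86% of windows. TTCNNGAA, the other arrangement, was in neither of the sequences printed and in 8.52% of windows. A second Cirbp window further downstream and the Hsf2 window held none of the 3 motifs. These matches describe letters and do not show that a factor binds.

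Rbm3 was the most abundant of the 4 genes. It measured 209, 195 and 204 FPKM in morphine libraries 1, 2 and 3, against 126, 145 and 142 FPKM in saline libraries 1, 2 and 3. Every morphine library was above every saline library, and the nearest libraries were 50.2 FPKM apart. The means were 203 ± 7.15 FPKM in morphine and 138 ± 10.3 FPKM in saline (SD, n = 3 each), a ratio of 1.47. The log2 fold change was 0.56 (SE 0.07). All log2 fold changes here are morphine minus saline on the scale log2(FPKM + 1), with the SE of a limma fit across all genes. Averaged over all 6 libraries, Rbm3 stood above 96.2% of the genes tested.

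Cirbp had the same direction with a smaller margin. It measured 80.0, 66.9 and 72.0 FPKM in morphine libraries 1, 2 and 3, against 46.1, 61.1 and 56.7 FPKM in saline libraries 1, 2 and 3. The groups did not overlap, but the nearest pair, morphine 2 and saline 2, were 5.80 FPKM apart, which is less than the SD of either group. The means were 73.0 ± 6.60 FPKM in morphine and 54.6 ± 7.69 FPKM in saline (SD, n = 3 each), a ratio of 1.34. The log2 fold change was 0.42 (SE 0.12).

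The heat shock factors showed no such separation. Hsf1 measured 12.2, 9.60 and 12.9 FPKM in morphine libraries 1, 2 and 3, against 10.8, 10.2 and 11.4 FPKM in saline libraries 1, 2 and 3. Morphine 2 was the lowest of the 6 libraries and the other two morphine libraries were the highest, so the groups overlapped. The log2 fold change was 0.09 (SE 0.11). Hsf2 measured 13.0, 12.5 and 12.0 FPKM in morphine libraries 1, 2 and 3, against 12.1, 12.6 and 13.3 FPKM in saline libraries 1, 2 and 3. Its groups overlapped almost completely, with a log2 fold change of -0.01 (SE 0.07). Of the 4 genes, 2 had every morphine library above every saline library, as had 13.0% of all genes tested, and the groups did not overlap in either direction for 28.7%. Over all genes limma called 1.51% at an adjusted p under 0.05. Since the genes were chosen with these values known, nothing is read from that count.

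**Figure D1:**
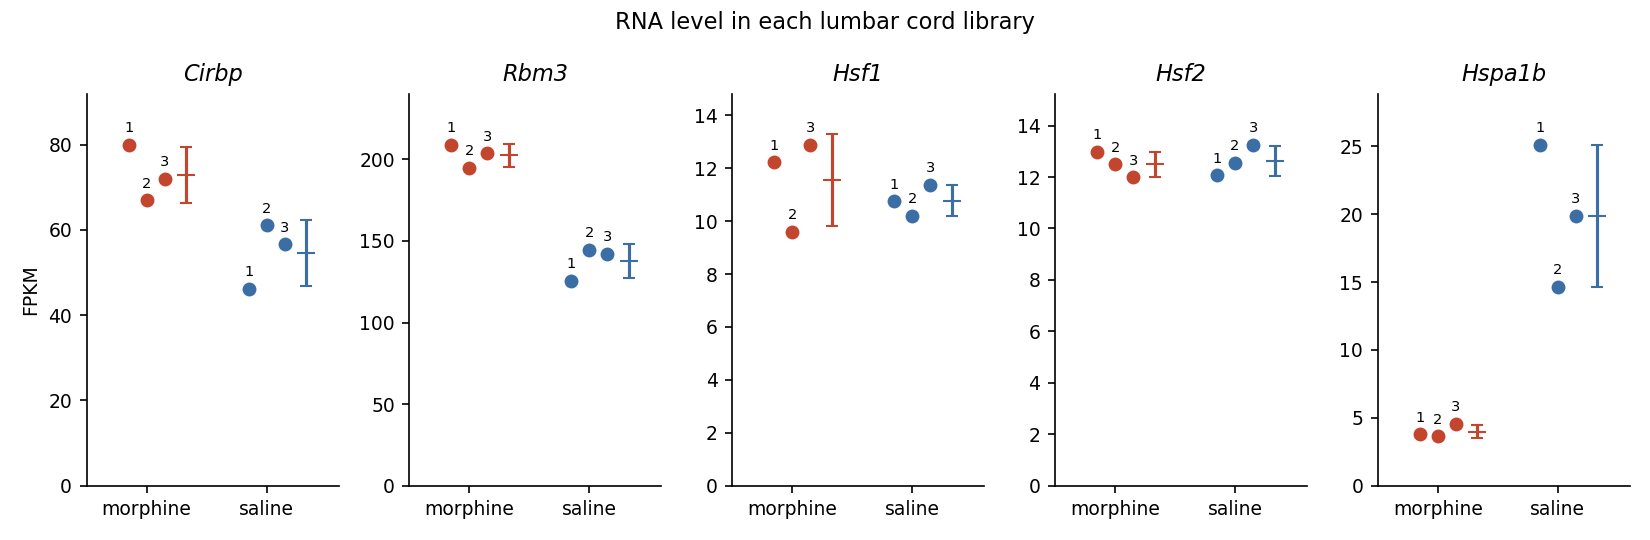
RNA level (FPKM, linear axes from 0) of Cirbp, Rbm3, Hsf1, Hsf2 and Hspa1b in morphine (red) and saline (blue) libraries, each point a library with its number and each bar the mean ± SD (n = 3). Rbm3 lies between 195 and 209 FPKM in morphine and between 126 and 145 FPKM in saline, Hspa1b lies at 4.55 FPKM or less in morphine and at 14.7 FPKM or more in saline, and the groups overlap for Hsf1 and Hsf2.

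FPKM is a value per transcript length, so the levels of the genes can be ranked. Rbm3 was above Cirbp in every library, by 2.61, 2.91 and 2.83 times in morphine libraries 1, 2 and 3 and by 2.73, 2.37 and 2.51 times in saline libraries 1, 2 and 3. Cirbp in turn was above both heat shock factors in every library. Hsf2 was above Hsf1 in 5 of the 6 libraries, by 1.06 and 1.30 times in morphine libraries 1 and 2 and by 1.12, 1.23 and 1.17 times in saline libraries 1, 2 and 3. In morphine library 3 the ratio was 0.931. The ranges of the 2 genes overlapped in morphine and did not overlap in saline. Averaged over the libraries, Hsf1 stood above 51.2% and Hsf2 above 54.5% of the genes tested. The depth, estimated from the steps of low FPKM values, was 17.8 to 19.9 M fragments in morphine and 21.2 to 26.1 M fragments in saline libraries. At that depth Rbm3 would rest on at least 2022 fragments per library if all came from its shortest coding transcript of 969 bases, with a counting error of 2.22%. Hsf1 would rest on 323 to 501 fragments with its longest coding transcript of 2104 bases and on 62 to 95 with its shortest of 578 bases. Its largest counting error was 5.57% or 12.7% by that choice, beside means of 11.6 ± 1.74 FPKM in morphine and 10.8 ± 0.590 FPKM in saline (SD, n = 3 each).

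Hspa1b ran the other way between the groups. It measured 3.79, 3.63 and 4.55 FPKM in morphine libraries 1, 2 and 3, against 25.1, 14.7 and 19.9 FPKM in saline libraries 1, 2 and 3. All morphine libraries were far below all saline libraries, and the saline libraries also differed among themselves. The near-identical copy Hspa1a, with 1918 of 1926 bases of the reading frame in common, measured 1.39, 1.24 and 1.28 FPKM in morphine, against 12.1, 5.61 and 8.60 FPKM in saline libraries in the same order. How fragments were divided between the copies is uncertain, but both copies were lower in every morphine library.

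Between the groups, Cirbp and Rbm3 thus stood opposite to Hspa1b, whereas Hsf1 and Hsf2 overlapped. The log2 ratio of Rbm3 to Hspa1b, each as log2(FPKM + 1), was 5.46, 5.40 and 5.21 in morphine libraries 1, 2 and 3, against 2.28, 3.22 and 2.78 in saline libraries 1, 2 and 3. That of Cirbp was 4.08, 3.88 and 3.72 in morphine, against 0.85, 1.99 and 1.47 in saline libraries in the same order. The means differed by 2.60 for Rbm3 and 2.46 for Cirbp. They also differed by 2.13 for Hsf1 and 2.03 for Hsf2, since most of each difference came from Hspa1b itself. When the mean log2 level of 24 heat shock chaperones took the place of Hspa1b, the differences were 0.96 for Rbm3, 0.82 for Cirbp, 0.49 for Hsf1 and 0.39 for Hsf2. Those 24 include Hspa1b and Hspa1a. With the mean of the other 22 chaperones, the differences were 0.81 for Rbm3, 0.67 for Cirbp, 0.34 for Hsf1 and 0.24 for Hsf2.

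The order of libraries inside a group does not follow from the difference between groups. Within saline, Hspa1b was highest in library 1, then 3, then 2, while Rbm3 and Cirbp were both highest in library 2, then 3, then 1, which is the exact opposite. This order in saline was found in 1586 of the genes tested (10.9%). Saline libraries 2 and 3 were close for Rbm3 (145 and 142 FPKM) and Cirbp (61.1 and 56.7 FPKM). On the shortest coding transcripts their counting errors were 1.88% and 2.10% for Rbm3 and 5.56% and 6.37% for Cirbp. The order of these 2 libraries is therefore not firm for either gene, while library 1 was lower by more than these errors. Within morphine the relation was not seen: Rbm3 and Cirbp were both highest in library 1, then 3, then 2, and Hspa1b was highest in library 3, then 1, then 2. Library 2 was thus lowest for all 3 genes. The counting errors of Hspa1b in morphine, 6.77% to 7.73%, are larger than the gap between libraries 1 and 2 but smaller than the gap from either to library 3.

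Rbm3 and Cirbp shared their order of libraries in both groups, as 2.81% of the genes tested did with Rbm3. Under rescaling to TPM, which gives every library the same total, and under quantile normalization the order of Rbm3 within morphine changed, while that of Cirbp was the same. The opposite order of both genes to Hspa1b within saline, and the gap between the groups for both, held as deposited and under TPM, quantile normalization, median centring and removal of the length trend. The gap for Cirbp was 0.023 log2 units under TPM, beside 0.129 as deposited. Hsf1 followed another order, highest in library 3, then 1, then 2 in both groups, and Hsf2 was highest in library 1 in morphine and in library 3 in saline. With 3 libraries a group and groups that separate on Hspa1b, no correlation with it can be given.

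**Figure D2:**
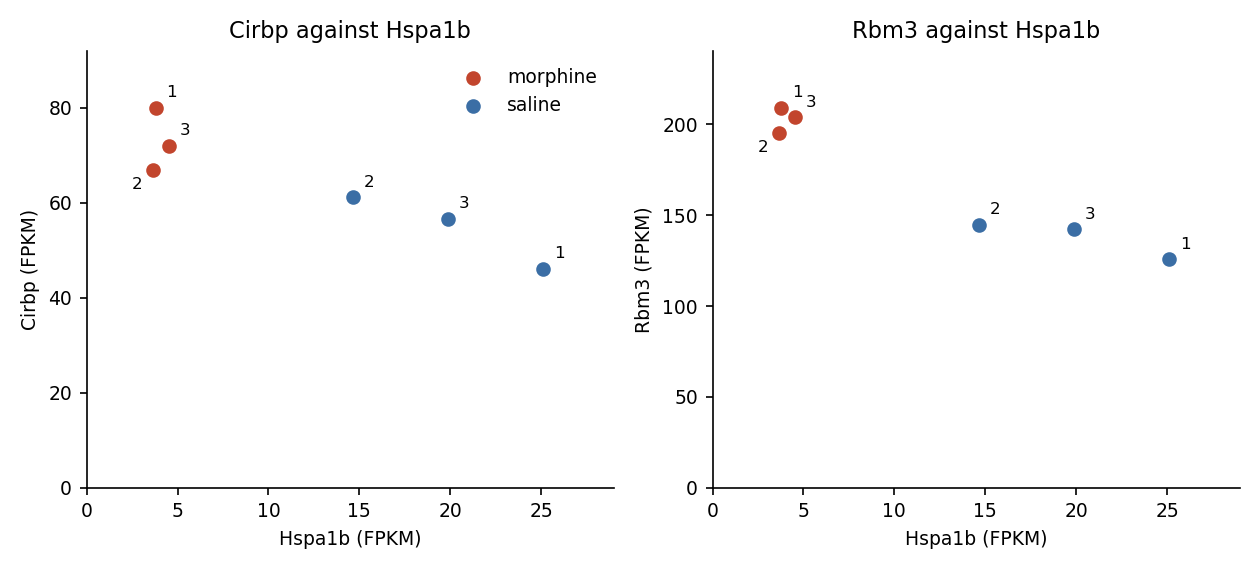
Level of Cirbp (left) and Rbm3 (right) against Hspa1b in each library, all in FPKM on linear axes, with morphine in red, saline in blue and the library number beside each point. The saline points descend from library 2 to library 1 as Hspa1b increases, and the morphine points, all at 4.55 FPKM of Hspa1b or less, show no such descent.

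The chaperone genes that HSF1 controls were read from a list of 24 genes, all of which passed the level for testing. By limma 6 fell and 0 rose at an adjusted p under 0.05 over all genes, beside 0.561% of all genes that fell and 0.944% that rose. These 6 include Hspa1b, on which the question was set, and its near-identical copy Hspa1a. The others were Dnajb1, Chordc1, Dnaja1 and Hsph1. At an unadjusted p under 0.05, 16 of the 24 were lower and 0 higher, and 14 of the 22 other than Hspa1b and Hspa1a were lower. Over all genes 22.3% had an unadjusted p under 0.05, 11.1% lower and 11.2% higher in morphine. The list had a median log2 fold change of -0.25 (-0.24 without the Hsp70 pair), beside -0.02 over all genes, and 23 of 24 were lower in morphine, beside 53.1% of all genes. Besides the Hsp70 pair, Dnajb1, the Hsp40 partner that hands substrates to Hsp70, was at 18.5, 19.0 and 18.7 FPKM in morphine, against 29.98, 26.3 and 29.6 FPKM in saline libraries 1, 2 and 3 (limma adjusted p = 0.0375). Chordc1, a cochaperone of Hsp90, was at 21.2, 19.8 and 19.2 FPKM in morphine, against 30.1, 27.5 and 29.5 FPKM in saline libraries 1, 2 and 3 (limma adjusted p = 0.0434). For both genes every morphine library was below every saline library. An earlier analysis of these libraries had already shown a fall of chaperone genes, so the list is not independent evidence of its direction.

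The spread among saline libraries also appeared across the list. Hspa1b and its near-identical copy Hspa1a were left out of this count, which leaves 22 chaperone genes. Library 1 was the highest of the saline libraries for 15 of the 22, beside 28.0% of all genes tested, and 9 of the 22 had the full order of Hspa1b (library 1, then 3, then 2), beside 11.6% of all genes. Saline 1 was also the library with the lowest Rbm3 and Cirbp. Within morphine 3 of the 22 shared the order of Hspa1b, beside 22.2% of all genes. The number of chaperone genes called depended on single libraries, being 9 without morphine 2, 2 without saline 2 and 0 without any one of the other 4 libraries. It was 16 under TPM and 0 when all genes above 0 FPKM were tested.

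Other heat shock factors and HSF1 regulators gave no called gene. Of 13 listed genes 9 were tested. By limma 0 were called, beside 1.51% of all genes, and 1 had an unadjusted p under 0.05, beside 22.3%. Hsf4, the only relative of Hsf1 and Hsf2 among those tested, had a mean of 14.9 FPKM in morphine and 13.4 FPKM in saline (log2 fold change 0.15, SE 0.09). It was named for its family after its value was seen. Hsf3 and Hsf5 were under the level for testing, and Hsfy2 was listed at 0 in all libraries. Hsbp1, which binds and restrains HSF1, was at 196 FPKM in morphine and 184 FPKM in saline (limma adjusted p = 0.341), and was also named after its value was seen. Ep300, an acetyltransferase that acts on HSF1, was at 5.59 FPKM in morphine and 7.38 FPKM in saline (limma adjusted p = 0.0927). The groups did not overlap for 1 of the 9 genes with morphine above (Hsbp1) and 1 with morphine below (Ep300). Over all genes these shares were 13.0% and 15.7%. Stub1, a ubiquitin ligase that works with Hsp70, was at 87.5 and 78.5 FPKM (limma adjusted p = 0.297). The median log2 fold change of the 9 genes was 0.09, beside -0.02 over all genes.

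The RNA-binding relatives of CIRBP and RBM3 gave no called gene either. Over all genes limma called 1.51%, and 22.3% had an unadjusted p under 0.05. At 1.51% a list of this length would hold few calls, so nothing is read from a count of 0 called. Among 13 tested genes of RNA-binding proteins with a glycine-rich region, such as the Hnrnpa genes, limma called 0, with 0 at an unadjusted p under 0.05, and the median log2 fold change was 0.09. Hnrnpa0 was at 67.9 FPKM in morphine and 59.5 FPKM in saline (limma adjusted p = 0.229), and Ewsr1 at 149 and 124 FPKM (limma adjusted p = 0.234). The CLK kinases act as thermometers of splicing in mammalian cells and phosphorylate the SR splicing factors. Of 19 such genes limma called 0, with 0 at an unadjusted p under 0.05, and Srpk1 and Srsf5 had the smallest p values (adjusted p = 0.25 and 0.327). Among 7 tested genes with a cold shock domain, a fold shared with bacterial cold shock proteins, limma called 0, with 1 at an unadjusted p under 0.05. That was Ybx2, at 2.47 ± 0.808 FPKM in morphine and 1.32 ± 0.171 FPKM in saline (SD, n = 3 each; limma adjusted p = 0.141). Removing morphine 2 brought 1 call higher in morphine in each of the first and the last of these 3 lists. Over all 14614 genes the same removal raised the calls from 220 (138 higher) to 805 (531 higher).

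Genes linked to RBM3 in mouse neurons were read next. RTN3, the membrane-shaping protein through which RBM3 acts at synapses in mouse models, had 456, 509 and 533 FPKM of Rtn3 RNA in morphine, against 561, 549 and 558 FPKM in saline libraries 1, 2 and 3 (limma adjusted p = 0.214). Creb1, a transcription factor in the TrkB pathway that induces RBM3 in mouse neurons, was at 6.57 FPKM in morphine and 7.71 FPKM in saline (limma adjusted p = 0.217). For 3 of the 5 genes of this list every morphine library was below every saline library, as for 15.7% of all genes. They were Rtn3, Creb1 and Ntrk2, the last at 47.2 FPKM in morphine and 50.9 FPKM in saline. Of the 5 genes limma called 0, beside 1.51% of all genes. At an unadjusted p under 0.05, a level that 22.3% of all genes reached, 2 were lower. Cirbp and Rbm3 RNA also follow the daily cycle of body temperature. Of 20 tested circadian clock genes limma called 0, with 0 at an unadjusted p under 0.05, and their median was -0.01. Cry2, a repressor of the clock, was at 19.5 FPKM in morphine and 21.9 FPKM in saline (limma adjusted p = 0.239). Bhlhe40, a clock-linked repressor, was at 24.5 and 28.3 FPKM (limma adjusted p = 0.263).

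**Figure D3:**
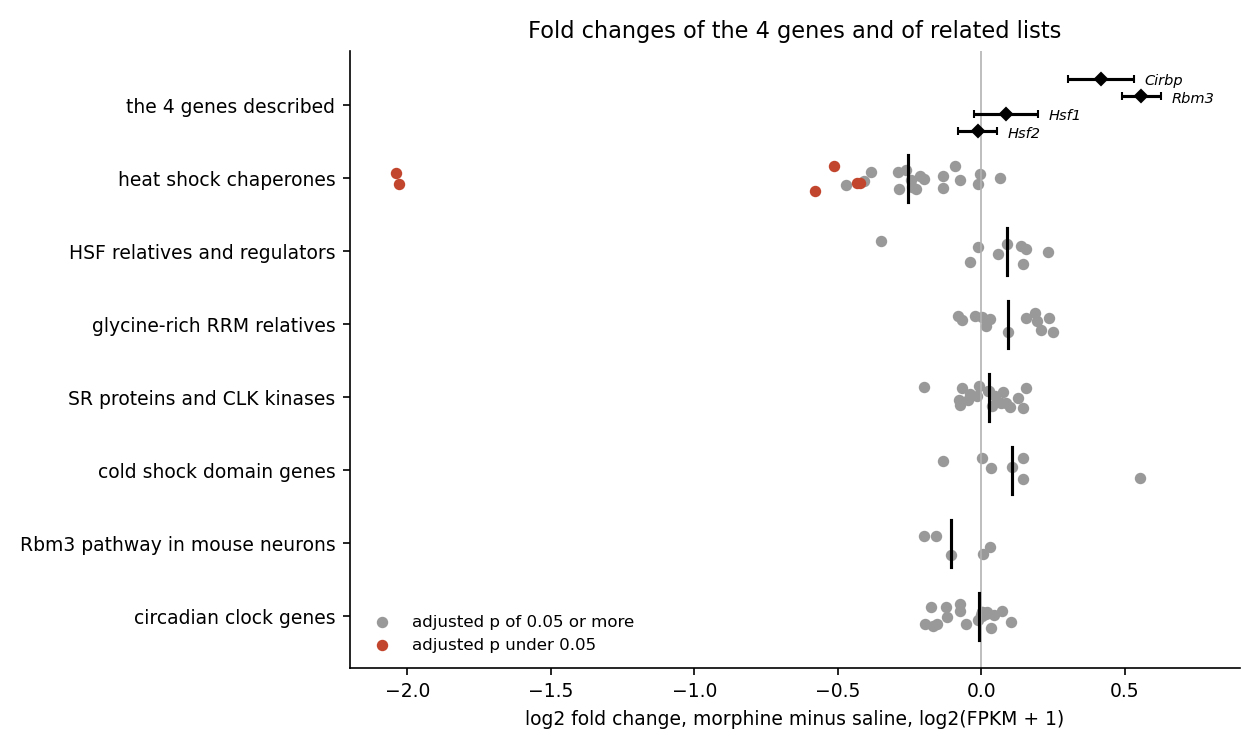
Log2 fold change, morphine minus saline on the log2(FPKM + 1) scale, of Cirbp, Rbm3, Hsf1 and Hsf2 (black diamonds, bars are SE) and of the tested genes of 7 related lists (points, black lines are list medians, red marks a limma adjusted p under 0.05). The called genes all lie in the heat shock chaperone list, which has a median of -0.25, and the medians of the other lists lie between -0.11 and 0.11.

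In whole tissue, fewer cells of a type and less RNA per cell cannot be told apart, so markers of the cells in the cord were read beside these genes. Oligodendrocyte markers summed to 17070 to 23180 FPKM in morphine and 14850 to 21720 FPKM in saline libraries, with overlap. Markers of dorsal root ganglia summed to 1.54 FPKM or less and those of muscle to 8.33 FPKM or less. Red blood cell markers moved with the groups, summing to 421 to 595 FPKM in morphine and 757 to 1077 FPKM in saline. Of its 5 genes limma called Hbb-bt lower, at 27.9 ± 4.24 FPKM in morphine and 65.9 ± 14.7 FPKM in saline (SD, n = 3 each; limma adjusted p = 0.0453). Ependymal markers summed to 30.9 to 32.2 FPKM in morphine and 21.5 to 27.96 FPKM in saline. Of their 5 tested genes limma called Ccdc153, a gene of motile cilia, higher, at 1.48 ± 0.308 FPKM in morphine and 0.240 ± 0.252 FPKM in saline (SD, n = 3 each; limma adjusted p = 0.0488). In saline Ccdc153 was at 0.53 FPKM or less, under the level for testing. Foxj1 was at 9.85 FPKM in morphine and 9.67 FPKM in saline, Rarres2 at 8.54 and 8.02 FPKM, and Mia at 7.87 and 4.96 FPKM, all with overlap. Dynlrb2 was at 1.12 to 2.35 FPKM in morphine and 0.48 to 0.79 FPKM in saline. Of the 5 genes, 2 (Ccdc153 and Dynlrb2) had every morphine library above every saline library, as had 13.0% of all genes. Both passed the level for testing only through the morphine libraries. Nothing is therefore read from that count or from the call of Ccdc153. Over all genes limma called 0.944% higher and 0.561% lower. The calls of Hbb-bt and Ccdc153 were both lost when any 1 library other than morphine 2 was left out. The part of these cells in the values of Rbm3, Cirbp and Hspa1b was not tested.

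In 7 further lists of cell type markers limma called 0 genes, beside 1.51% of all genes. In these lists 10 motor neuron, 10 neuron, 8 astrocyte, 8 oligodendrocyte, 8 microglia, 8 vessel and 7 meningeal genes were tested. At an unadjusted p under 0.05, which 22.3% of all genes reached, 0 motor neuron, oligodendrocyte and meningeal genes were found. There were 1 neuron gene (lower), 3 astrocyte genes (1 higher, 2 lower), 1 microglia gene (higher) and 4 vessel genes (all lower). All 7 meningeal genes and 9 of the 10 motor neuron genes were nonetheless lower in morphine, beside 53.1% of all genes. Their median log2 fold changes were -0.71 and -0.50, beside -0.02 over all genes, and the groups overlapped for each of these genes. The 2 tested muscle genes were not called. The vessel markers differed between the groups in part only. Their mean log2(FPKM + 1) was 3.27, 3.58 and 3.37 in morphine libraries 1, 2 and 3, against 3.62, 3.64 and 3.61 in saline libraries 1, 2 and 3. The groups did not overlap on that mean, nor for 4 of the 8 genes, all lower in morphine, as were 15.7% of all genes, while the summed levels of 126 to 151 FPKM in morphine and 144 to 159 FPKM in saline overlapped. Pecam1, an adhesion molecule of endothelial cells, was at 2.69, 3.85 and 3.21 FPKM in morphine, against 5.09, 5.22 and 5.29 FPKM in saline libraries 1, 2 and 3 (limma adjusted p = 0.0589). Of the 8 genes 7 were lower and 1 was higher in morphine. The higher gene was Cldn5, at 24.3 ± 2.95 FPKM in morphine and 22.5 ± 2.32 FPKM in saline (SD, n = 3 each), with overlap. The part of vessel cells in the values of Rbm3, Cirbp and Hspa1b was not tested.

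Motor neuron markers varied within both groups. Their mean log2(FPKM + 1) was 2.81, 3.94 and 2.04 in morphine libraries 1, 2 and 3, against 4.06, 3.93 and 2.36 in saline libraries 1, 2 and 3.

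Hsf1 was higher in the 3 libraries with lower motor neuron marker levels, which came from both groups. Ordered from the lowest marker level to the highest, morphine 3, saline 3, morphine 1, saline 2, morphine 2 and saline 1 had 12.9, 11.4, 12.2, 10.2, 9.60 and 10.8 FPKM of Hsf1. With that level as a covariate the log2 fold change of Hsf1 was 0.01 (SE 0.08), beside 0.09 without it. Rbm3 and Cirbp were less affected, at 0.53 (SE 0.06) and 0.38 (SE 0.12) with the covariate. The libraries fall into separate clusters of marker level, so no correlation is given. Morphine 1, morphine 3 and saline 3 were also the lowest on the mean of oligodendrocyte, astrocyte, neuron and meningeal markers. For oligodendrocyte markers that mean was 9.67, 9.56 and 9.43 there, against 10.02, 9.88 and 9.92 in morphine 2, saline 1 and saline 2. Microglia, vessel, ependymal and red blood cell markers did not split this way. The covariate thus does not single out motor neurons, and the part of each cell type was not tested.

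**Figure D4:**
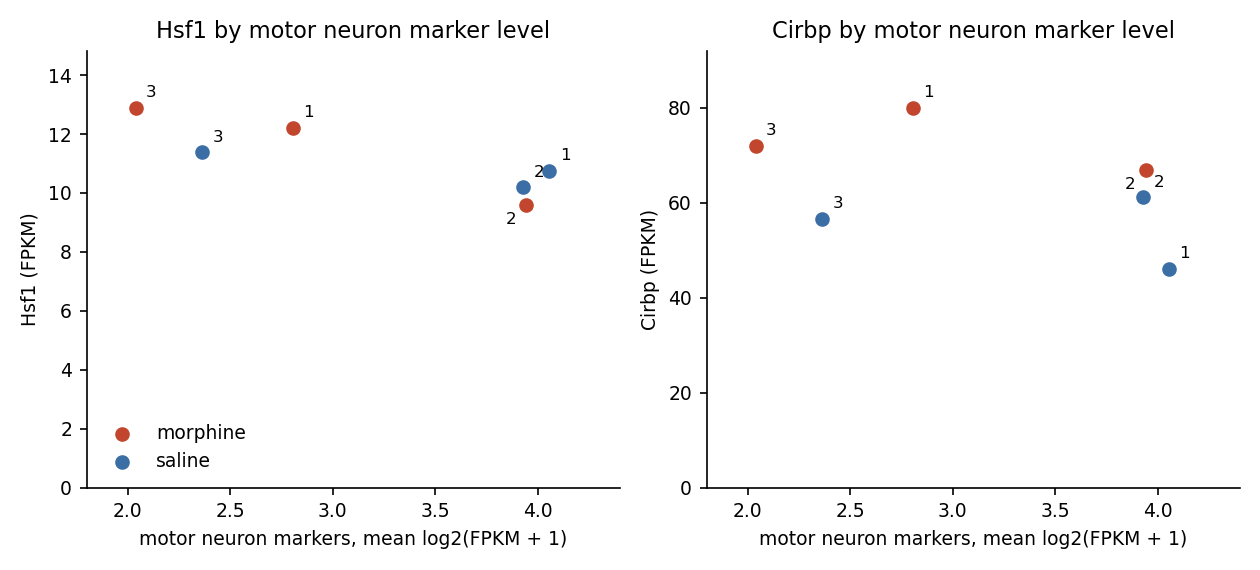
Level of Hsf1 (left) and Cirbp (right), in FPKM, against the mean log2(FPKM + 1) of 10 motor neuron markers in each library, with morphine in red and saline in blue. Hsf1 is at 11.4 FPKM or more in the 3 libraries with a marker level of 2.81 or less and at 10.8 FPKM or less in the other 3 libraries, while Cirbp separates by group at either marker level.

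Genes most like each of the 4 across the 6 libraries were ranked by Pearson's r of log2(FPKM + 1) among all genes tested, as a description. Any gene that separates the groups will rank high with Rbm3 and Cirbp. For all 4 genes, those named are the extremes among 14614 genes over only 6 libraries, so nothing is read from the size of r. Closest to Rbm3 were Tpgs1 (r = 0.998), Ndufaf2 (r = 0.997) and Tmem234 (r = 0.996). Farthest were Fzd4 (r = -0.999), P4ha1 (r = -0.994) and Pcx (r = -0.993). The likest genes of Rbm3 differed less between the groups than Rbm3 did, with log2 fold changes of 0.18, 0.28 and 0.21. P4ha1, a prolyl hydroxylase of collagen, was the steepest of the opposite genes, at 13.2 FPKM in morphine and 21.6 FPKM in saline.

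For Cirbp the closest were Pmf1 (r = 0.991), Mrps28 (r = 0.99) and Yod1 (r = 0.99), and the farthest were Rspo3 (r = -0.996), Pkm (r = -0.995) and Nacc2 (r = -0.993). Pkm, the pyruvate kinase of glycolysis, was at 695 FPKM in morphine and 742 FPKM in saline, a log2 fold change of -0.09 beside 0.42 for Cirbp. For Hsf1 the closest were Neu1 (r = 0.994), Fam160a2 (r = 0.989) and Syp (r = 0.983), and the farthest were Cp (r = -0.998), Lamb2 (r = -0.996) and Clmn (r = -0.992). Syp encodes synaptophysin of synaptic vesicles, and Cp and Lamb2 encode ceruloplasmin and a laminin chain. In all of them, as in Hsf1, the groups overlapped. For Hsf2 the closest were Rictor (r = 0.987), Wdr75 (r = 0.985) and Letm2 (r = 0.976), and the farthest were Rab33a (r = -0.995), Psmf1 (r = -0.965) and Lmo1 (r = -0.96).

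Overlapping sequences bear on Rbm3. The processed pseudogene Rbm3-ps on chromosome 1 is identical to the Rbm3 reading frame at 462 of 465 bases. It was at 9.02, 6.32 and 7.92 FPKM in morphine, against 5.92, 5.69 and 6.92 FPKM in saline libraries 1, 2 and 3. How fragments were shared between the copies is uncertain, and Rbm3 was 20.5 to 30.8 times the pseudogene in each library. The antisense gene Rbm3os overlaps exons of Rbm3 on the opposite strand and did not exceed 0.52 FPKM in any library.

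Fold changes also depend on the scale between libraries. The FPKM columns summed to 720234 to 741145 in morphine and 662470 to 670280 in saline, and under TPM the median over all genes tested was -0.13 on the log2 scale, beside -0.02 as deposited. Under TPM Rbm3 was at 0.43 and Cirbp at 0.29, both above that median. Hsf1 turned to -0.03 and Hsf2 was at -0.14, close to the median of all genes, with every morphine library of Hsf2 then below every saline library. Fold changes also fell with exonic length across genes, which are not independent replicates (Spearman's rho -0.310). With that trend removed Rbm3 was at 0.60, Cirbp at 0.38, Hsf1 at 0.15 and Hsf2 at 0.065.

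**Figure D5:**
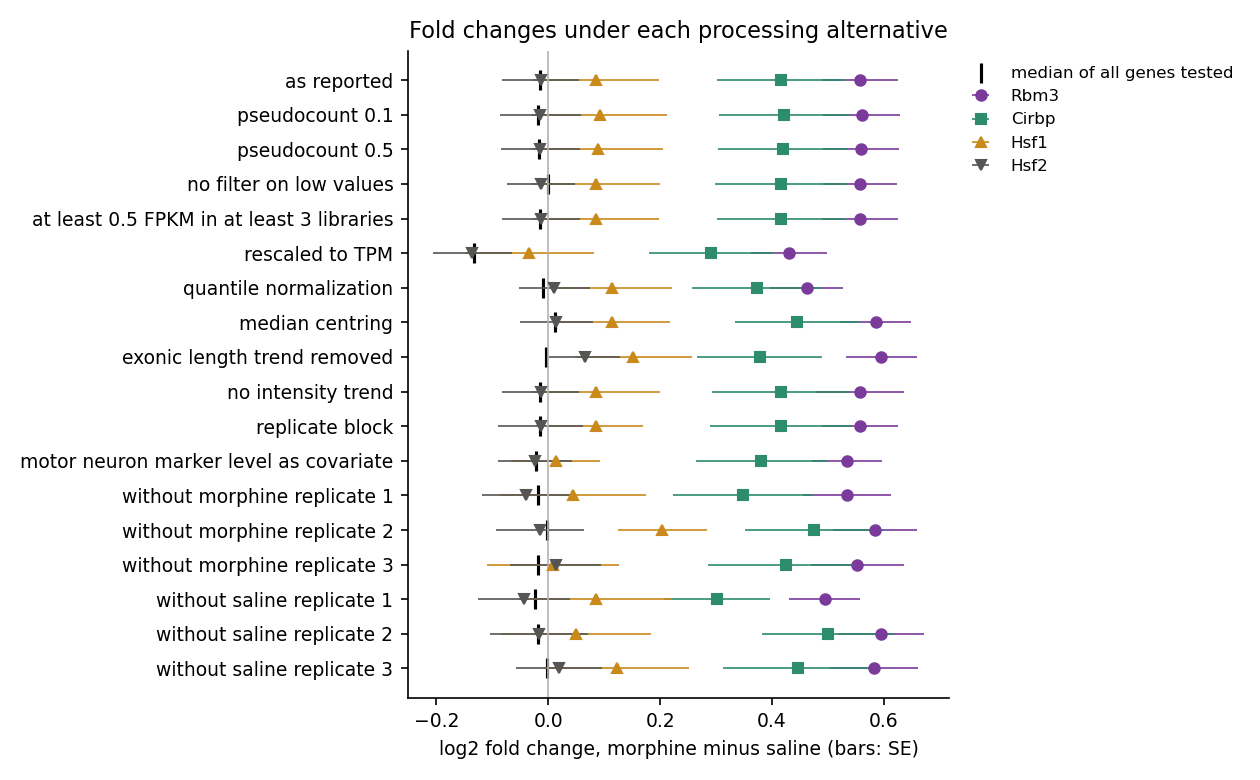
Log2 fold change, morphine minus saline, of Rbm3, Cirbp, Hsf1 and Hsf2 as reported and under each of 17 alternatives, with bars for the SE and a black tick for the median of all genes tested; 4 of the 17 (both other filters, no intensity trend and the replicate block) can change the SE only. Rbm3 stays between 0.43 and 0.60 and Cirbp between 0.29 and 0.50, while Hsf1 and Hsf2 lie on both sides of 0.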

How the data were processed

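RNA of lumbar cord was measured in 3 morphine and 3 saline libraries made with the KAPA stranded kit, per the labels' protocols. The submitters' processing notes name STAR, RSEM, Trimmomatic, bcl2fastq 2.19.0 and the mm10 build. The sources used here do not state the annotation or whether counting used strand. The authors deposited FPKM values with 2 decimals for 52513 genes in 6 columns that match the sample descriptions.

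Genes at 1 FPKM or more in at least 3 libraries were fitted as log2(FPKM + 1), two-sided, by limma 3.58.1 under R 4.3.3 with its intensity trend and Benjamini-Hochberg adjustment over all 14614 genes at a threshold of 0.05. A fold change on this scale understates the change of low genes. The script was tested on simulated data. Depth was estimated from genes with 1 transcript, at which 77.6% to 80.4% of low values were whole numbers of fragments (within 0.05 or the rounding of the table), against 12.7% to 15.7% if spread evenly; intervals of this kind cover counting error only. Coordinates and lengths came from GENCODE M21, and motifs and alignments used Python 3.11.15 and Biopython 1.88. P-values measure the spread between these libraries, which may be technical.

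The members and lists were chosen with earlier results of these data known. Named genes are the 4 members, Hspa1b and Hspa1a, up to 4 called genes of each related list or else the 2 with the smallest p, and the 3 genes with the highest and the 3 with the lowest r to each member, without predicted genes; 1 gene under this rule is not reported here. Within the marker lists of cell types that rule's genes are given where called. Hsf4, Hsbp1, Rbm3-ps, Ntrk2, Pecam1, Cldn5, Foxj1, Rarres2, Mia, Dynlrb2, Dnaja1 and Hsph1 were added after their values were seen.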

Additional observations from a re-analysis of the deposited data

How the results depend on the processing

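Of 17 alternatives 13 could change the fold change of a gene, and in these 13 Rbm3 and Cirbp were higher in morphine. Rbm3 was 0.43 under TPM and 0.46 under quantile normalization, which moved it by more than the spread between replicates, and ran from 0.49 to 0.595 without one library. Cirbp ran from 0.30 to 0.50 without one library. Hsf2 was -0.14 under TPM and 0.065 with the length trend removed, and Hsf1 and Hsf2 without one library ran from 0.01 to 0.20 and from -0.04 to 0.02. Set against the mean of all 24 chaperones, which include Hspa1b and Hspa1a, the differences were 0.82 for Cirbp, 0.96 for Rbm3, 0.49 for Hsf1 and 0.39 for Hsf2. Against the 22 without that pair, an alternative chosen after seeing the data, they were 0.67, 0.81, 0.34 and 0.24 for the genes in the same order. Without one library, the differences to Hspa1b ran from 2.16 to 2.73 for Cirbp, 2.36 to 2.83 for Rbm3, 1.95 to 2.28 for Hsf1 and 1.82 to 2.22 for Hsf2. The orders and overlaps of libraries under TPM, median centring and length trend removal were chosen after seeing the data.

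Counts of called genes were less stable. Over all genes there were 220 (138 higher, 82 lower), and 954 under TPM (101 higher, 853 lower), 102 under quantile normalization (47 higher, 55 lower), 662 under median centring (518 higher, 144 lower), 8 with no filter, 33 with the length trend removed (14 higher, 19 lower), 36 without the intensity trend (14 higher, 22 lower), 929 with the motor neuron covariate and 1 to 805 without one library (805 without morphine 2). The number of chaperones called was 6, and 16 under TPM, 11 under quantile normalization, 12 with the covariate, 3 with the length trend removed, 2 without the intensity trend, 0 with no filter and 0 to 9 without one library. Red blood cell genes numbered 3 under TPM, under median centring and with the covariate, 0 with no filter and without the intensity trend, and 0 to 1 without one library. The 1 ependymal call went to 0 with a pseudocount of 0.1 or 0.5, no filter, quantile normalization, the length trend removed or no intensity trend, and ran from 0 to 3 without one library. Under TPM 1 HSF regulator, 1 astrocyte, 1 neuron and 2 vessel genes were called; with the covariate 2 astrocyte, 2 oligodendrocyte, 1 neuron and 1 cold shock domain gene; under median centring 1 astrocyte gene. Without one library the counts ran from 0 to 1 for cold shock domain genes and RNA-binding relatives and from 0 to 2 for vessel genes. The cause of these shifts was not tested.

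Whether the replicate numbers pair the libraries cannot be settled with 3 libraries a group. Deviations from the group means correlated at -0.129, 0.161 and 0.295 for numbers 1, 2 and 3. The value for number 3 was the highest of all pairs, while morphine 2 correlated best with saline 1 (0.238). With the number as a replicate block 24 genes were called (17 higher, 7 lower), with 2 chaperones, 2 red blood cell and 0 ependymal genes among them. The block cannot move a fold change in this design, and with it the SE of Hsf1 was 0.0835, beside 0.113. With 3 libraries a group, no order within a group can be tested, and the Hspa1b values in morphine rest on an estimated 167 to 218 fragments.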
